A study of Mus musculus with 12 samples.

Results

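A set of 10 genes that a T-cell receptor signal switches on early, or that feed back on that signal, was examined: Egr1, Egr2, Egr3, Nr4a1, Rcan1, Nfatc1, Cd69, Dusp2, Dusp6 and Zfp36. The genes were chosen by name, with earlier results of these data known, and each probe set annotated to 1 of them alone was taken. This gave 10 probe sets for 8 of the 10 genes, out of 12422 probe sets for mouse transcripts and 8251 genes. Egr3 and Cd69 had no probe set under these names in the annotation used and were not analysed here. The study compared TEL-JAK2 leukemia with normal thymus. TEL-JAK2 is a fusion of the transcription factor TEL (Etv6) with the tyrosine kinase Jak2. The leukemia group held 8 arrays of total RNA from leukemic cells, prepared as thymus cell suspensions from TEL-JAK2 mice that were terminally ill. The thymocyte group held 4 arrays from suspensions of the thymus of wild-type mice that were 2 months old. Both groups were of C57Bl/6 background, were kept on ice and dissociated mechanically in cold buffer, and no sort or stimulation is named in the labels. The sources used here name neither the promoter that drives TEL-JAK2 nor the age of the ill mice, so age cannot be told apart from leukemia. Nothing states outright that the arrays came from separate animals, so each p-value rests on the spread among these arrays, which may be partly technical.

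When a T-cell receptor binds its ligand, one branch of the signal runs through Ras and the kinase ERK and helps drive transcription of Egr1, Egr2 and Egr3. In another branch calcium activates the phosphatase calcineurin, which sends NFAT factors to the nucleus. Nr4a1 draws on both branches and is widely used as a readout of receptor signal strength in thymocytes. Rcan1 binds and restrains calcineurin, Dusp2 and Dusp6 remove phosphate from MAP kinases, and Zfp36 speeds the decay of messenger RNAs with AU-rich elements, so that several of these genes limit the signal that induced them.

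Promoter sequences of the members were searched for short motifs known from early-response genes. RefSeq windows of the build GRCm38.p6, each from 250 bases before to 50 bases after a start site, were at hand for 6 of the 10 members, in 11 windows, of which 5 belonged to Egr2 and 2 to Rcan1. The stretches below are 5 that were picked by hand, without a ranking of the windows. Each is written 5′ to 3′ on the strand of its gene and ends at the base before the start, and capitals mark every match to a searched motif on either strand. The motifs were the CArG box bound by serum response factor (also with 1 mismatch), the cyclic AMP response element TGACGTCA, the related TGCGTCA, the AP-1 site TGANTCA, the NFAT core GGAAA and the EGR site GCGNGGGCG, and a match can overlap another.
Egr2, the third of 5 starts, chr10:67537719-67537868, plus strand: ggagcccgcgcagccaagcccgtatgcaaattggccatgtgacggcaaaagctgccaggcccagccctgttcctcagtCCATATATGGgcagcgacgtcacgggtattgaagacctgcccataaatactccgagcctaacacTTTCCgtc
Nr4a1, chr15:101266596-101266845, plus strand: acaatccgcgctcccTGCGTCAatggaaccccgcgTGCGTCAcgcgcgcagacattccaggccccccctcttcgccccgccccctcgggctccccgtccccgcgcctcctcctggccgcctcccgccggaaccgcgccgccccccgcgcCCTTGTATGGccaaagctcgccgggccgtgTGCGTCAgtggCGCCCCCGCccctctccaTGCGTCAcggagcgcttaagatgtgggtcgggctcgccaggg
Rcan1, the second of 2 starts, chr16:92400079-92400328, minus strand: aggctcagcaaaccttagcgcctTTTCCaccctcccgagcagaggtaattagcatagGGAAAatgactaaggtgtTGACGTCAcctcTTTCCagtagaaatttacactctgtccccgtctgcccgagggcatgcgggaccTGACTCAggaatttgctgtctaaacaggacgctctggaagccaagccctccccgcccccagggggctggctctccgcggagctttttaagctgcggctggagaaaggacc
Dusp2, chr2:127336009-127336158, plus strand: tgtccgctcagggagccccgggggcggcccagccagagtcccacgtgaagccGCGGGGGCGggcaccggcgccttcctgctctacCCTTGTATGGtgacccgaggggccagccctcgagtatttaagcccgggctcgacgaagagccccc
Zfp36, chr7:28379229-28379378, minus strand: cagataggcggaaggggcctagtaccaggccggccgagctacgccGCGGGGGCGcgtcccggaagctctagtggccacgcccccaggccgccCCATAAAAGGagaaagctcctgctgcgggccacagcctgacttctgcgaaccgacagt

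A CArG box stood 72 bases before that Egr2 start and 58 bases before the Zfp36 start, where 1.63% of all 32851 windows held one. In Nr4a1 and Dusp2 the same 10 letters, CCTTGTATGG, stood 101 and 65 bases before the start. They differ from the CArG consensus by 1 mismatch, a kind of match found in 8.5% of windows. The letters were counted because these 2 genes share them, and 11 of the 32851 windows (0.0335%) held them on either strand. That share is therefore no measure of how unusual the match is. At the Nr4a1 start 4 copies of TGCGTCA lay 235, 215, 71 and 42 bases upstream. Of all windows 2.12% had at least 1 copy, and the Nr4a1 window alone (0.00304%) had 4. The motif was chosen as one known from early-response genes, so this share too is no measure of how unusual the window is. Nr4a1, Dusp2 and Zfp36 each held 1 EGR site, which 5.55% of windows hold. The second Rcan1 start, the internal promoter known for its response to calcineurin, had 3 copies of GGAAA at 227, 193 and 163 bases upstream. Such a count of copies was reached by 9.42% of windows, and 61.3% had at least 1. The same Rcan1 stretch held the cyclic AMP response element at 175 bases (1.79% of windows) and an AP-1 site at 110 bases (7.81%). The first Rcan1 start had no GGAAA in its window and 1 CArG-like element, a kind found in 8.5% of windows. Dusp6 had 2 copies of GGAAA, at 154 and 145 bases, and the first of the 5 Egr2 windows held none of the motifs. The second Egr2 window, not printed above, held a CArG box at 72 bases and a CArG-like element at 117 bases. It also had 3 copies of GGAAA, as many as the second Rcan1 start. These matches describe letters in a short window and are not measured binding, and the arrays do not tell transcripts of different starts apart.

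**Figure D1:**
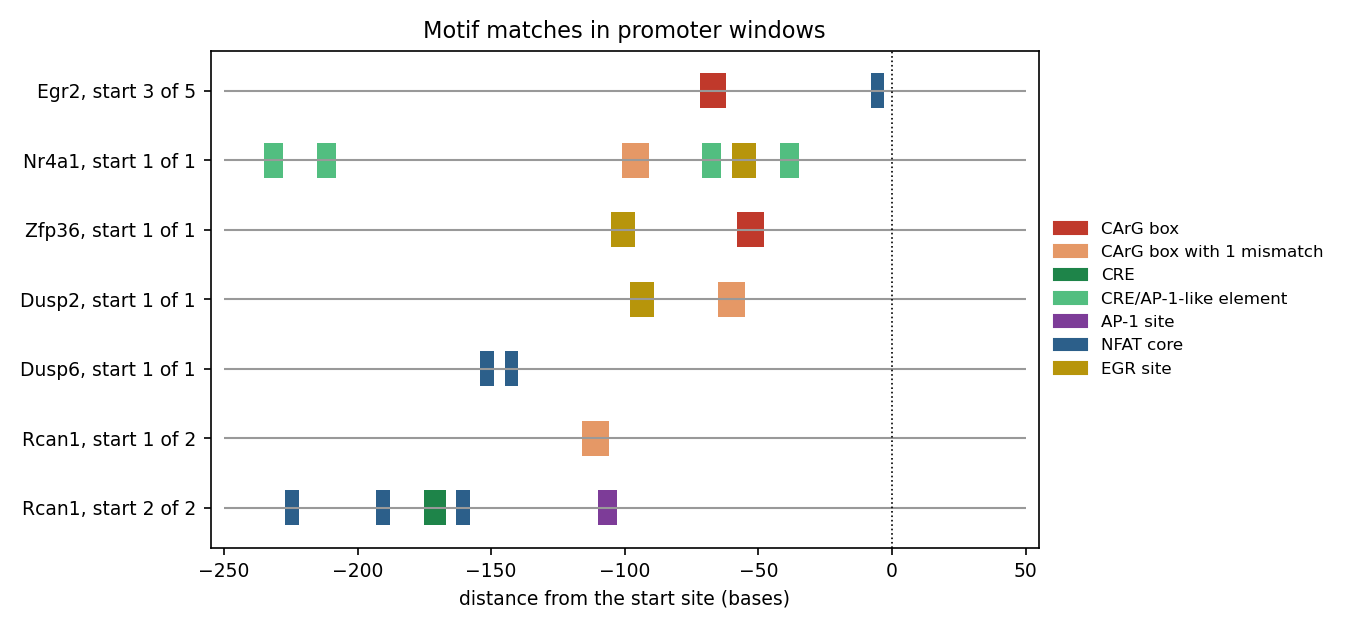
Motif matches in 7 promoter windows of 6 genes, drawn by distance in bases from the start site (dotted line), with each window as a grey line and each match as a coloured box at its true length. The 4 light green boxes of Nr4a1 are its TGCGTCA copies, and the blue boxes at the second Rcan1 start are its 3 GGAAA cores.

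On the arrays, 6 of the 8 measured genes fell in leukemia: Dusp6, Egr1, Egr2, Nr4a1, Zfp36 and Rcan1. None rose, and Nfatc1 and Dusp2 had differences near 0. In each of the 6 genes all 8 leukemias lay below all 4 thymocyte arrays. Values are the authors' intensities on a log2 scale, compared with limma over all 12422 probe sets at a Benjamini-Hochberg adjusted p under 0.05. By that rule 14.5% of all probe sets differed and 9.88% were lower in leukemia, against 6 of the 10 member probe sets, all lower. Every leukemia lay below every thymocyte array in 6.84% of all probe sets. A fall of at least 1 on the log2 scale that also passed was found in 4 member probe sets and in 1.21% of all. The median difference of the 10 probe sets was -0.73, and that of all probe sets was 0.0072. Because the members were chosen with earlier results of these data known, these contrasts describe them and are not a test. In such bulk samples fewer cells of a type and less RNA per cell cannot be told apart.

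**Figure D2:**
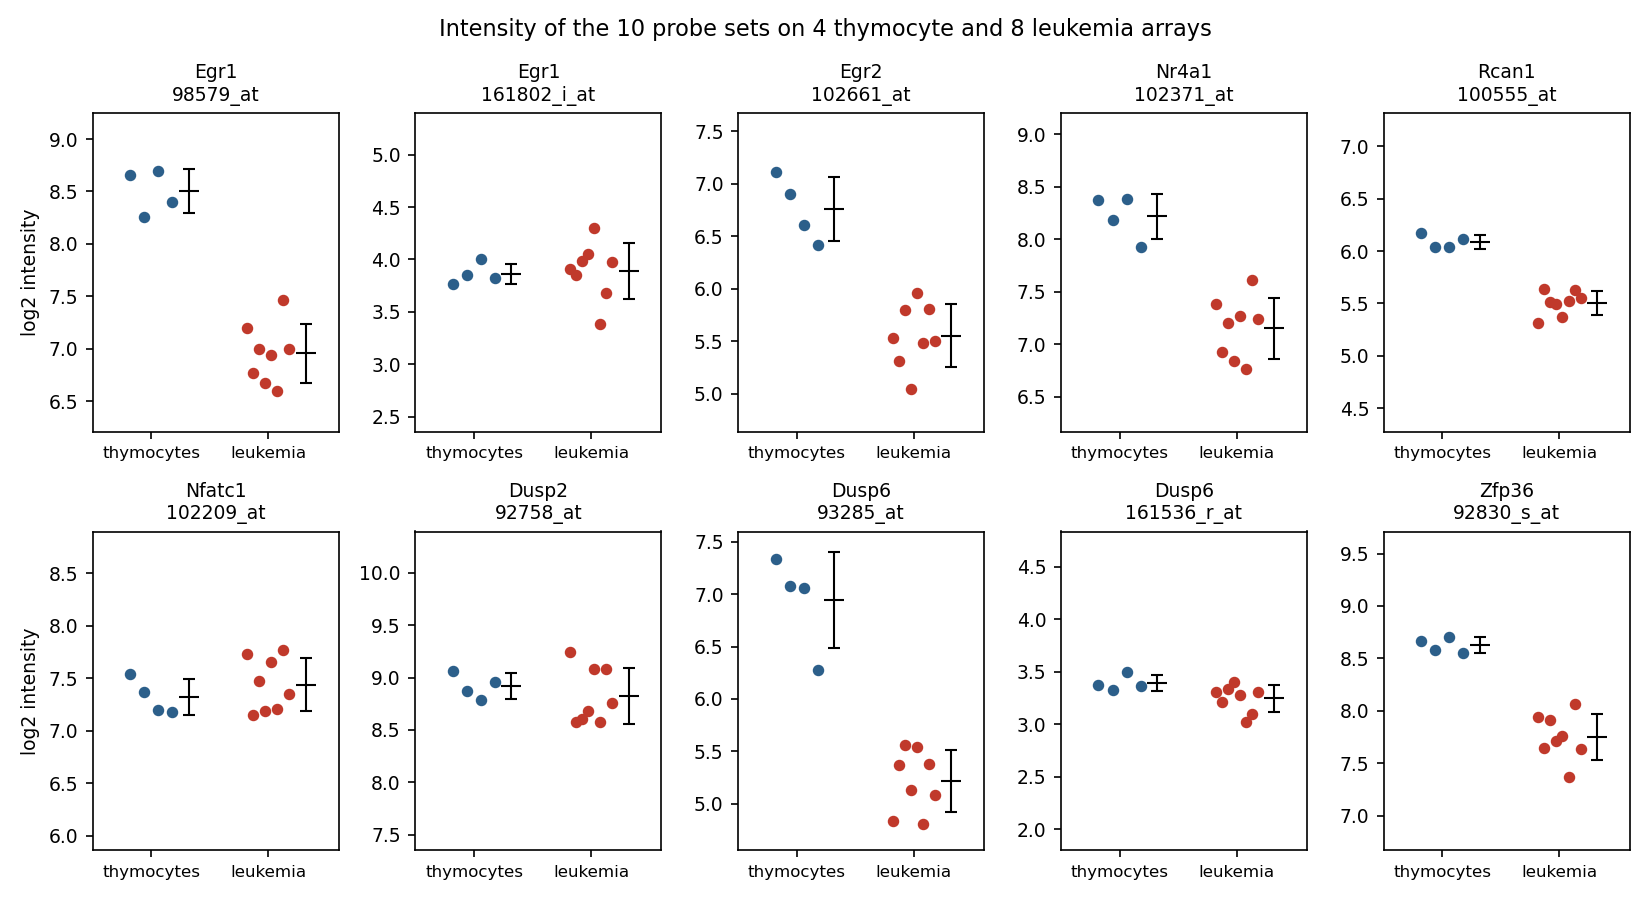
Log2 intensity (y axes, all of equal span) of the 10 member probe sets on 4 thymocyte arrays (blue) and 8 leukemia arrays (red), 1 point per array, with bars for the mean ± SD. Red and blue points are apart in Egr1 98579_at, Egr2, Nr4a1, Rcan1, Dusp6 93285_at and Zfp36, and they overlap in the other 4 panels.

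Egr1 is a zinc-finger transcription factor induced within minutes through ERK. Its probe set 98579_at read 8.66, 8.26, 8.69 and 8.40 on thymocyte arrays 1 to 4, and 6.60 at the lowest, 6.97 at the median and 7.46 at the highest of the 8 leukemias. Leukemia 7 was the highest and leukemia 6 the lowest, and a gap of 0.79 separated the groups. The means were 6.96 ± 0.28 (SD, n = 8) and 8.50 ± 0.21 (SD, n = 4). Egr1 thus fell by 1.54 (SE 0.15, 95% interval -1.86 to -1.23), which is 2.92-fold, with a limma adjusted p of 1.51e-05. The other Egr1 probe set, 161802_i_at, read 3.89 ± 0.27 and 3.86 ± 0.10. Both means lay below the control level, the 95th percentile of 19 control probe sets for non-mouse transcripts (5.20 to 5.59 over the arrays), so this probe set carries no reading of the gene.

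Egr2, a close relative of Egr1 needed for thymocyte selection, read 7.11, 6.90, 6.60 and 6.42 in thymocytes. The leukemias ranged from 5.04 over a median of 5.52 to 5.96, and 4 of the 8 stood above the control level of their own array. No leukemia reached the lowest thymocyte array. The means were 5.55 ± 0.30 (SD, n = 8) and 6.76 ± 0.31 (SD, n = 4), a log2 difference of -1.21 (SE 0.17, limma adjusted p = 2.97e-04). The measured means were 2.31-fold apart (95% interval 1.80 to 2.95). With no array read below its control level they were 2.24-fold apart.

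Nr4a1, also known as Nur77, is an orphan nuclear receptor linked to the death of thymocytes under strong receptor signals. It read 8.37, 8.18, 8.39 and 7.93 in thymocytes and 6.76, 7.22 and 7.61 at the lowest, median and highest leukemia. The closest pair of arrays across the groups, leukemia 7 and thymocyte array 4, were 0.32 apart. The means of 7.15 ± 0.29 (SD, n = 8) and 8.22 ± 0.21 (SD, n = 4) gave a fall of 2.09-fold (log2 difference -1.07, SE 0.15, limma adjusted p = 3.69e-04).

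Among the calcineurin genes, the inhibitor Rcan1 fell and the factor Nfatc1 did not pass the test. Rcan1 read 6.17, 6.04, 6.04 and 6.11 in thymocytes and 5.32, 5.52 and 5.63 at the lowest, median and highest leukemia. Its spread was the narrowest of the 6 genes that fell, and 6 of the 8 leukemias were above the control level of their array. The means were 5.50 ± 0.11 (SD, n = 8) and 6.09 ± 0.066 (SD, n = 4), a log2 difference of -0.59 (SE 0.071, limma adjusted p = 1.11e-04). With no array read below its control level, Rcan1 was at least 1.47-fold lower. Nfatc1, an NFAT factor that calcineurin activates and that also induces its own short isoform, read 7.54, 7.37, 7.19 and 7.18 in thymocytes. The leukemias ran from 7.15 over 7.41 to 7.77, with 3 above every thymocyte array and 1 below every one. The difference of 0.12 had a 95% interval from -0.17 to 0.40 and a limma adjusted p of 0.636.

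Of the MAP kinase phosphatases, Dusp6 fell and Dusp2 did not pass the test. Dusp6, which acts on ERK in the cytoplasm, read 7.34, 7.08, 7.06 and 6.28 on its probe set 93285_at in thymocytes and 4.81, 5.25 and 5.56 at the lowest, median and highest leukemia. Thymocyte array 4 was the low one of its group and still stood 0.72 above the highest leukemia. The means were 5.22 ± 0.30 (SD, n = 8) and 6.94 ± 0.46 (SD, n = 4), a log2 difference of -1.72 (SE 0.19, 95% interval -2.14 to -1.31, limma adjusted p = 5.64e-05). Since the leukemia mean lay below the control level, with 4 of 8 arrays above it, Dusp6 was at least 2.81-fold lower. The second Dusp6 probe set, 161536_r_at, was below the control level in both groups (3.25 ± 0.13 and 3.39 ± 0.077) and did not pass. Dusp2, a nuclear phosphatase of ERK, read 9.06, 8.88, 8.78 and 8.96 in thymocytes and 8.57, 8.72 and 9.24 at the lowest, median and highest leukemia. Leukemias 1, 5 and 7 lay above all thymocyte arrays and the other 5 below all of them, so that the mean difference of -0.094 (95% interval -0.38 to 0.19, limma adjusted p = 0.716) averages both sides.

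Zfp36, the RNA-decay factor tristetraprolin, read 8.67, 8.58, 8.71 and 8.55 in thymocytes and 7.37, 7.74 and 8.07 at the lowest, median and highest leukemia. The groups were 0.48 apart at their nearest arrays. The means were 7.75 ± 0.22 (SD, n = 8) and 8.63 ± 0.073 (SD, n = 4), a fall of 1.83-fold (log2 difference -0.87, SE 0.11, limma adjusted p = 1.55e-04). The name of its only probe set, 92830_s_at, marks possible cross-hybridization with related transcripts. For each of the 6 probe sets that fell, an exact two-sided permutation test of the arrays gave p = 0.00202, the smallest that 495 splits allow.

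**Figure D3:**
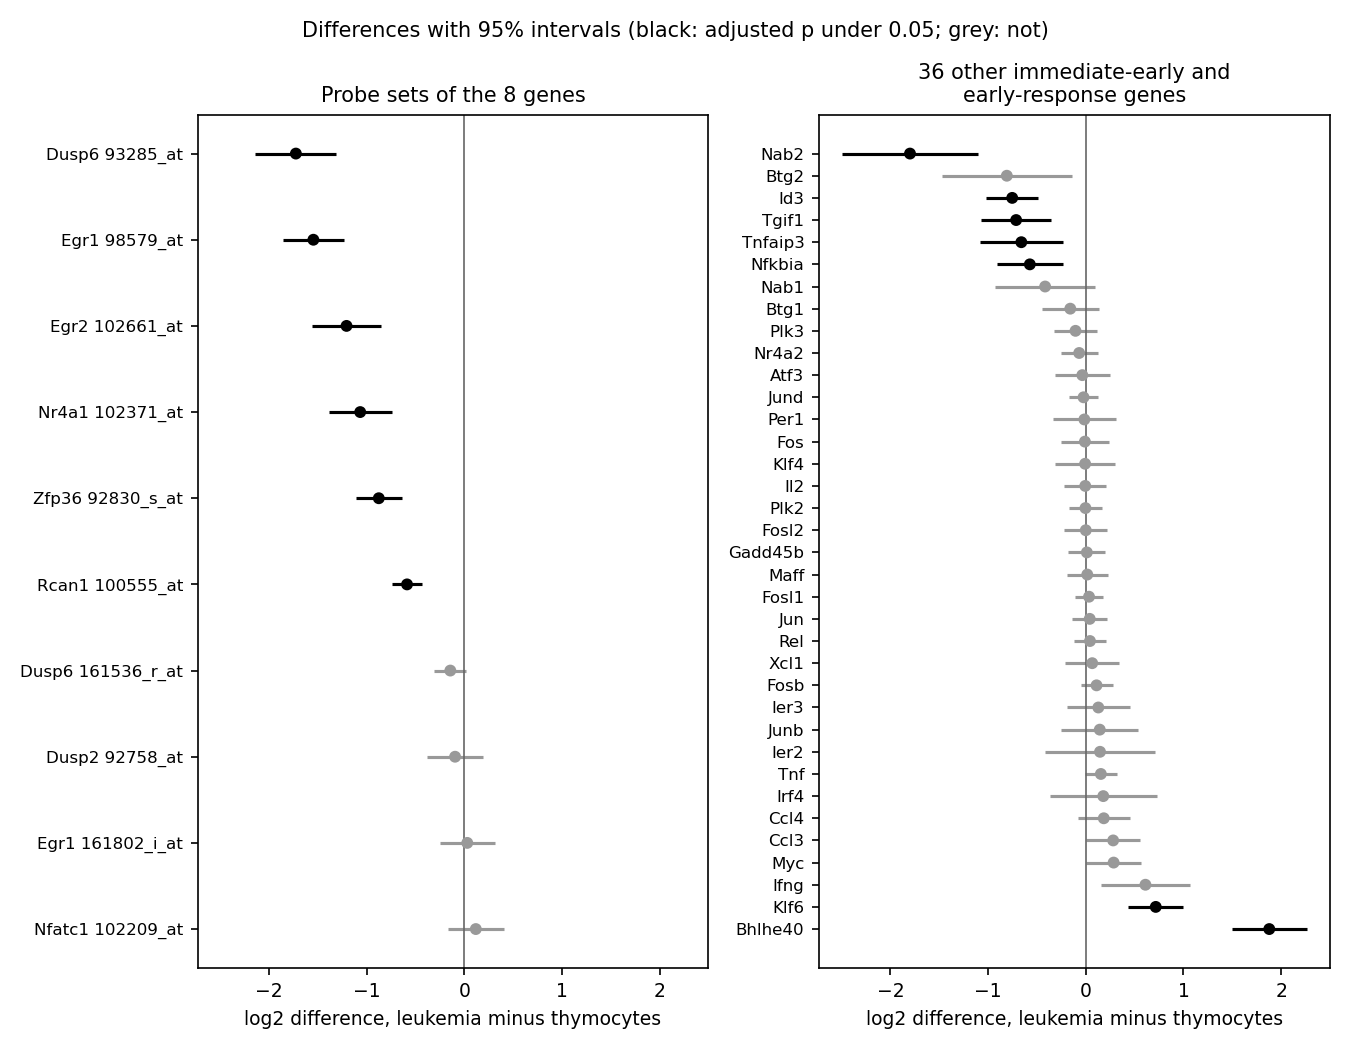
Log2 differences, leukemia minus thymocytes (x axes), with 95% intervals from limma, for the 10 member probe sets (left) and 36 other immediate-early and early-response genes (right), black where the adjusted p was under 0.05. In the left panel 6 intervals lie wholly below 0, from Dusp6 at -1.72 to Rcan1 at -0.59, and in the right panel 5 black points lie below 0 and 2 above.

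Genes around the members were read from 6 lists of pathway genes, each gene on its brightest probe set. Of 135 genes listed, 95 were analysed, and 18 fell, 4 rose and 73 did not pass. Of all 8251 genes, 16.6% passed, 11.4% lower and 5.15% higher in leukemia, with a median difference of 0.0037. In the calcineurin-NFAT list 4 of 16 genes fell and 1 rose, with a median of -0.16. Nfatc3, an NFAT factor abundant in double-positive thymocytes, fell from 8.99 ± 0.16 (SD, n = 4) to 7.44 ± 0.36 (SD, n = 8), a difference of -1.55 (SE 0.17, limma adjusted p = 6.01e-05). A second Nfatc3 probe set differed by 0.22 without passing (adjusted p = 0.209). Fkbp1a, the binding protein of the calcineurin blocker FK506, fell by 0.86 (SE 0.13), and the kinases Csnk1a1 (-0.57) and Dyrk1a (-0.46), which phosphorylate NFAT, fell as well. Dyrk1a passed narrowly (limma adjusted p = 0.0471), with 4 of the 8 leukemias below every thymocyte array. A second Csnk1a1 probe set (-0.35) did not pass. Ppp3ca, a catalytic subunit of calcineurin, rose by 1.11 (SE 0.14, limma adjusted p = 1.23e-04), at least 1.64-fold over thymocytes near the control level. Nfatc2, another NFAT factor, differed by 0.18 on its brightest probe set (limma adjusted p = 0.107), and its 2 dimmer probe sets passed as higher, at 0.41 and 0.40. The other catalytic subunits Ppp3cb (-0.23) and Ppp3cc (0.87) and the regulatory subunit Ppp3r1 (-0.42) did not pass. The count in this list was 3 in place of 5 without thymocyte array 1, 2 or 3, by exact permutation, at an adjusted p under 0.01 and with macrophage markers as a covariate, and it was 9 with array weights.

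The Ras-ERK pathway genes upstream of the Egr genes did not pass in any of 19 cases in limma (median -0.032), where 3 had an unadjusted p under 0.05, and an exact permutation test adjusted over all probe sets also called 0. Of these 19 genes, 5 had means below the control level in both groups. The brightest of the 19 were the adaptor Grb2, which differed by 0.037, and the GTPase Nras, by -0.15. This count of 0 did not hold in several other fits: 2 genes passed with a block for whether a sample title carries a 4-digit number, within the samples that carry one, with quantile normalization or without thymocyte array 4, and 4 passed with array weights. It was 1 without leukemia 1, 4 or 5 and with the macrophage covariate. The list of ERK feedback inhibitors and other MAP kinase phosphatases had 6 genes analysed of 15 listed. The means of 3 of the 6, Dusp8, Dusp9 and Dusp16, lay below the control level in both groups. In this list 1 of 6 genes fell and none rose (median 0.081). That gene was Spred2, an inhibitor of Ras signalling, at least 1.55-fold lower with leukemias near the control level (difference -0.95, SE 0.12, limma adjusted p = 1.55e-04). Dusp1, another immediate-early phosphatase, differed by 0.60 and did not pass (adjusted p = 0.129).

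In the list of other immediate-early and early-response genes 5 of 36 fell and 2 rose, with a median of 0.0057. Nab2, a corepressor that binds Egr1 and Egr2 and is itself an Egr target, fell from 8.12 ± 0.12 (SD, n = 4) to 6.32 ± 0.71 (SD, n = 8), a difference of -1.80 (SE 0.32, limma adjusted p = 0.00195). Its relative Nab1 (-0.42) did not pass. Id3, an inhibitor of E proteins that Egr factors induce in thymocytes, fell by 0.75 (SE 0.12, limma adjusted p = 9.84e-04). The other genes of this list that fell were Tgif1 (-0.71) and the NF-kappaB inhibitors Tnfaip3 (-0.66) and Nfkbia (-0.57). Against these, the circadian repressor Bhlhe40 rose by 1.88 (SE 0.18, at least 2.90-fold, limma adjusted p = 1.43e-05) and the factor Klf6 rose by 0.72 (SE 0.13, limma adjusted p = 0.00216). The classical immediate-early genes Fos (-0.0089), Jun (0.040), Junb (0.14), Fosb (0.11), Ier2 (0.15) and Nr4a2 (-0.067) did not pass. Fos, Jun and Nr4a2 were among 8 genes of the list whose means lay below the control level in both groups. Of the 7 genes of this list that passed, 4 also passed when thymocyte array 1 was left out, and the count was 4 by exact permutation and 13 with array weights.

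Proteins that work beside Zfp36 on AU-rich RNAs formed a list in which 4 of 6 genes fell and 1 rose (median -0.50). Hnrnpd (-0.54), the Zfp36 relative Zfp36l1 (-0.86), the deadenylase subunit Cnot8 (-0.70) and the stabilising protein Elavl1 (-0.46) fell. Zfp36l2, another relative, rose by 1.09 (limma adjusted p = 0.0194), with further probe sets at 1.22 (passing) and 0.66 (not passing). Most of these 5 calls were lost in several other fits: 1 gene passed by exact permutation or at an adjusted p under 0.01, 2 with the macrophage covariate or without thymocyte array 1, and 3 without thymocyte array 3 or 4 or within the samples with a 4-digit title number.

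Handling of tissue can itself induce early genes. In a list of 15 genes of handling and heat shock, 4 fell and none rose (median -0.12). The means of 5 of the 15, Fos, Jun, Hspa1a, Hspa1b and Hspb1, lay below the control level in both groups. For these 5 a change could hardly be read. The genes that fell were Gadd45a (-0.69), Hsp90aa1 (-0.78), Hsph1 (-0.99) and Hspd1 (-0.51). A second Hspd1 probe set (0.16) and a dim second Hsp90aa1 probe set (0.031, mean log2 of 3.94) did not pass. The part of this list's genes in the lower values of Egr1, Egr2, Nr4a1 and Zfp36 was not tested.

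Within the leukemias, several members rose and fell together from array to array. Egr1 read 7.46 and 7.20 in leukemias 7 and 1, and 6.60, 6.68 and 6.77 in leukemias 6, 4 and 2. Nr4a1 read 7.61 and 7.38, and 6.76, 6.84 and 6.92, in the same leukemias. Both genes thus had the same 2 highest and the same 3 lowest arrays, in the same order. Their Pearson r was 0.979 (exact permutation p = 1.49e-04, adjusted over 28 pairs of the 8 genes 0.00417) and Spearman's rho 0.922 (exact p = 0.00248, adjusted 0.060). With leukemias 6 and 7 removed, which lay farthest from the Egr1 median, r was 0.958, and with each leukemia left out in turn it stayed between 0.972 and 0.995 and passed each time.

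Nfatc1 and Dusp2, whose group means did not differ past the threshold, also varied together: both were high in leukemias 1, 5 and 7. Nfatc1 read 7.73, 7.66 and 7.77 and Dusp2 9.24, 9.08 and 9.09 in these 3. Their r was 0.895 (exact permutation p = 0.00677, adjusted 0.0370) and rho 0.857 (exact p = 0.0107, adjusted 0.060), with r at 0.788 without leukemias 1 and 7. The other pairs whose r passed the adjustment were Nr4a1 with Nfatc1 (r 0.918), Egr1 with Nfatc1 (0.876), Egr1 with Zfp36 (0.867) and Nr4a1 with Zfp36 (0.842). The respective adjusted p values from exact permutation were 0.0274, 0.0324, 0.0370 and 0.0370, and the respective rho were 0.881, 0.826, 0.790 and 0.786. Without leukemias 6 and 7 the respective r were 0.906, 0.846, 0.660 and 0.570, so that r dropped most in the pairs with Zfp36. By Spearman's rho none of the 28 pairs passed the adjustment and 11 had an unadjusted exact p under 0.05. With a single leukemia left out, 1 to 5 pairs passed in place of 6, the fewest without leukemia 1 or 7. No pair with Rcan1, Dusp6 or Egr2 passed. The r ran from -0.57 to 0.26 for Rcan1 and from -0.049 to 0.49 for Dusp6, without regard to the sets of sample titles described below. Egr1 with Egr2 gave 0.580 (exact adjusted p = 0.276). Without leukemias 1 and 5, Rcan1 had r of 0.32 with Nfatc1, 0.44 with Dusp2, 0.35 with Dusp6 and 0.31 with Zfp36. Without leukemias 6 and 7 its r was -0.62 with Egr1 and -0.67 with Nr4a1, and without leukemias 4 and 5 it was -0.015 with Egr2.

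**Figure D4:**
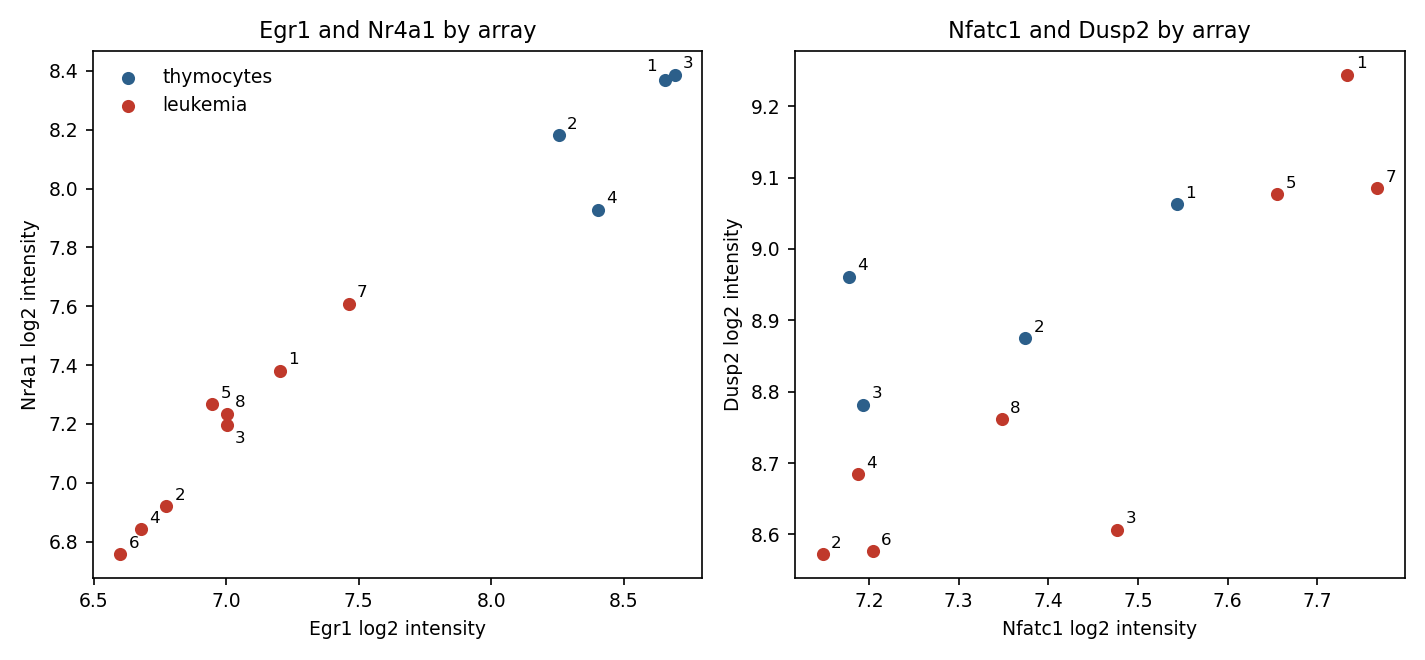
Log2 intensity of Nr4a1 against Egr1 (left) and of Dusp2 against Nfatc1 (right), 1 numbered point per array, leukemias in red and thymocytes in blue. In the left panel the leukemias form a line from leukemia 6 (6.60 and 6.76) to leukemia 7 (7.46 and 7.61) that stays below all thymocyte arrays, and in the right panel the groups overlap.

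Over all 12 arrays, which also differ by group, the genes most like Egr1 among 4120 genes of above-median brightness were the netrin gene Ntn1 (Pearson r 0.974), the T-cell surface receptor Cd6 (0.969) and the splicing factor Srsf2 (0.961). Their own differences were -0.77, -1.32 and -0.63. The gene most like Nr4a1 was Cd5, a surface receptor that tunes T-cell receptor signals (r 0.966, difference -2.33). For the other members the closest were Xpo6 for Egr2 (0.953), Usp21 for Rcan1 (0.977), Birc3 for Nfatc1 (0.929), Ephx1 for Dusp2 (0.901), Macir for Dusp6 (0.967) and B3gnt2 for Zfp36 (0.964). These likenesses are descriptions over arrays that share the group difference.

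Markers of T cells were present in both groups. The summed intensity of 9 T-lineage markers was 10415 to 21489 over the leukemias and 19310 to 20148 over the thymocyte arrays. Of the 9, Cd4 (-1.89) and Cd247 (-0.93) fell. The other 7 did not pass, with differences from -0.49 (Cd8b1) to 0.26 (Cd3d). The brightest markers, Thy1 and Cd8b1 (mean log2 of 11.96 and 11.75 over all arrays), weigh most in this sum of linear intensities. The sum was below every thymocyte array in 7 of the 8 leukemias, at 17889 or less, so by group it was lower where the members fell. Among the leukemias the order differed. The lowest sums, 10415 and 12927, were in leukemias 1 and 7, which had the 2 highest values of Egr1 and Nr4a1. Dusp6 was low in leukemia 1 (4.84). The part of the T-lineage sum in the fall of the members was not tested. In leukemia 4 the sum of 21489 exceeded every thymocyte array. This array read 6.68 for Egr1, 5.04 for Egr2 and 6.84 for Nr4a1, among the lowest values of its group. It read 5.50 for Rcan1, 5.135 for Dusp6 and 7.71 for Zfp36, nearer the group medians of 5.52, 5.25 and 7.74. Macrophage markers moved with some leukemias. The sum of all 12 was 1304 to 6435 in leukemias and 1353 to 1835 in thymocytes. Of these 12, none passed in limma and 3 had an unadjusted p under 0.05, with the bright C1qc at 0.63 and Mpeg1 at 0.77 and with Mrc1 and Adgre1 below the control level in both groups. The mean log2 level of these markers was 7.47, 7.86 and 7.99 in leukemias 3, 5 and 7 and 6.37 to 6.82 in the other 5. With that level as a covariate all 6 members still passed, with differences of -1.92 for Dusp6, -1.70 for Egr1, -1.43 for Egr2, -1.24 for Nr4a1, -0.99 for Zfp36 and -0.59 for Rcan1. The pathway lists lost more, with 17 genes passing in place of 22. Its part in the shared variation of Nfatc1, Dusp2, Egr1 and Nr4a1 across leukemias was not tested. Sums for the other lists were 2482 to 3406 against 2441 to 2806 for 7 B-cell markers, 961 to 1306 against 1093 to 1162 for 5 dendritic-cell markers and 438 to 629 against 539 to 629 for 7 thymic epithelial markers. Of these 7, Ccl25 fell (difference -1.20, at least 2.03-fold, limma adjusted p = 3.10e-05). Krt18 passed as lower and Epcam as higher, but both, like Foxn1, were below the control level in both groups. For 3 erythroid markers the sums were 976 to 6105 against 3187 to 6729, and the 4 markers of natural killer cells were all below the control level in both groups.

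Sample titles fall into a set with a number of 4 digits, holding leukemias 2 to 5 and thymocyte arrays 1 to 3, and a set without, holding the other 4 leukemias and thymocyte array 4. The labels do not say what the number stands for. With the set as a block all 6 members passed, with differences of -1.57 for Egr1, -1.18 for Egr2, -1.07 for Nr4a1, -0.59 for Rcan1, -1.60 for Dusp6 and -0.87 for Zfp36. Within the 4-digit set alone they were -1.69, -1.35, -1.26, -0.58, -1.76 and -0.90 in the same order, and all passed. Within the other set they were -1.34, -0.84, -0.68, -0.61, -1.25 and -0.80. With a single thymocyte array, assumed to vary like the leukemias, none of these passed in limma, and 5 of the 10 member probe sets had an unadjusted p under 0.05. Each set holds too few leukemias for a correlation of its own. With the mean of each set removed from its leukemias and arrays permuted within sets (576 permutations), 3 of the 6 correlated pairs still passed: Egr1 with Nr4a1 (r 0.978), Egr1 with Zfp36 (0.954) and Nr4a1 with Nfatc1 (0.909), each with an exact adjusted p of 0.0324. The rest of the 6 pairs had r of 0.864 to 0.901 and exact adjusted p values of 0.0608 to 0.0625. The same step raised the r of Dusp6, which then ran from 0.29 to 0.78. It was 0.76 with Egr1, 0.77 with Egr2 and 0.78 with Nr4a1, against 0.24, 0.49 and 0.30 without the step. No pair with Dusp6 passed, with exact adjusted p values of 0.132, 0.0625 and 0.123 for these.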

How the data were processed

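The labels' protocols describe total RNA, biotin labelling and Affymetrix arrays. The authors deposited 1 linear intensity per probe set and array, and the submitters' processing notes name RMA. The sources used here give no RMA version and no later step. Array medians lay between 66.48 and 70.18, so log2 was taken without an offset and no step was added. Of 12488 probe sets, 66 were controls. The deposited platform annotation gave 1 gene for 10833 of the rest, several for 396 and none for 1193, and 10817 of those with 1 gene were found in RefSeq (GRCm38.p6). The groups come from the disease state in the labels.

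Groups were compared two-sided by lmFit and eBayes of limma (version 3.58.1, under R 4.3.3) without a covariate, with Benjamini-Hochberg adjustment over all 12422 probe sets, and every adjusted p of a difference comes from it. The script was tested on simulated data. Each gene was read from its brightest probe set, by the mean of the 12 arrays. Dyrk1a, Nfkbia and Cd247 each have 1 other probe set, whose values are not given. A group mean below the mean control level of its arrays is called near or below the control level. A fold is then "at least" the ratio of the brighter mean to, per array, the higher of that level and the value. Such a fold is a point estimate and not the lower end of an interval. The number of arrays limits the precision.

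The members and lists were chosen with earlier results of these data known. Named genes are the members, up to 4 passing genes with the largest moderated statistic in each pathway list (or the 2 brightest), the genes most like each member, and the brightest markers. Dyrk1a, Tgif1, Tnfaip3, Nfkbia, Elavl1, Cd4, Cd247, Ccl25, Krt18, Epcam and Nfatc2 and other list genes that did not pass were named after their values were seen. Alternatives are given in the closing section.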

Additional observations from a re-analysis of the deposited data

How the results depend on the processing

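All 6 member probe sets that passed did so with every array left out in turn (count 6 to 6). The count was 3 of the 5 tested in the brighter part of the probe sets, which drops the dimmer ones, and 0 in the arrays without a 4-digit title number (4 against 1). Of 95 list genes, 22 passed in the main comparison, 40 with array weights, 13 by exact permutation, 12 at an adjusted p under 0.01, 13 to 28 with an array left out (13 without thymocyte array 1) and 0 in the arrays without a 4-digit number, where 19 had an unadjusted p under 0.05. The 6 correlated pairs became 1 to 5 with a leukemia left out and 3 with title-set means removed, an alternative chosen after seeing the data. Signs turned only where the difference was near 0. Nfatc1 became -0.0034 in the 4-digit set and -0.045 with the macrophage covariate. The dim Egr1 probe set 161802_i_at became -0.089 in the arrays without a 4-digit number and -0.017 with the covariate, and ranged from -0.027 to 0.10 with an array left out. The causes were not tested. No paired analysis was possible because replicate numbers were given in accession order. Values near the control level limit Egr2, Rcan1 and Dusp6 in leukemia.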
